A study of Rattus norvegicus with 7 samples.

Results

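Adamts16 and the 9 ADAMTS family members measured beside it were followed on 7 expression arrays of NRK-52E, an established epithelial line from rat kidney. A gene was taken where a probe set of the array is annotated to it and to no other gene. The 10 genes (Adamts16, Adamts1, Adamts4, Adamts6, Adamts7, Adamts9, Adamts10, Adamtsl1, Adamtsl4 and Adamtsl5) have 13 probe sets, out of 14217 genes and 31042 probe sets that are not controls. Of the 10 genes, 7 have 1 probe set and 3 have 2. The array holds 6 further family genes, and 8 of the 24 in the RefSeq gene table are not on it under a symbol of their own.

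The series targeted Adamts16 with siRNAs; the gene was under study as a candidate gene for inherited hypertension. Cultures given siRNA 3488, directed at Adamts16, are on 2 arrays, those given siRNA 2600, directed at the same transcript, are on 2, and those given a scrambled siRNA are on 3. All cultures were the same unmodified line in medium with 10% serum, seeded at 20% confluence, and all received lipid reagent and 100 pmol of siRNA per ml for 48 h. No untransfected culture is among them, so every value comes from transfected cells. The series design calls the cultures independent; with so few arrays, all errors below are wide.

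ADAMTS proteins are secreted zinc metalloproteases that carry thrombospondin repeats and cut proteoglycans, procollagens and microfibril components of the extracellular matrix. They are made as inactive precursors that furin-like convertases trim, are held in check by tissue inhibitors of metalloproteases, and are taken up through the receptor Lrp1. ADAMTS-like proteins keep the repeats but lack the catalytic domain, and several bind fibrillin microfibrils. The questions here are which relatives of Adamts16 the cells express, and whether any was higher where Adamts16 was targeted.

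The siRNAs are the reagents that define the groups. They are printed here because 1 of the 2 probe sets of Adamts10 differed between siRNA 3488 and siRNA 2600. Each is given 5′ to 3′ without its overhang of deoxythymidines, with T as the labels write it, and capitals mark bases 2 to 8 of the antisense strand, the seed.
siRNA 3488 sense: agaagtacgtctccggaaa
siRNA 3488 antisense: tTTCCGGAgacgtacttct
siRNA 2600 sense: cctatatttctgtgcgcaa
siRNA 2600 antisense: tTGCGCACagaaatatagg
scrambled sense: cctccaatgtgctcggtaat
scrambled antisense: aTTACCGAgcacattggagg
The siRNAs against Adamts16 are 19 bases long and the scrambled one 20, with a GC content of 47.4% (siRNA 3488), 42.1% (siRNA 2600) and 50% (scrambled). The sense strands of siRNA 3488 and siRNA 2600 share no run longer than 3 bases. With the scrambled sense strand the longest shared run is 4 bases for siRNA 3488 and 5 for siRNA 2600. Where their sites lie relative to the Adamts16 probe set was not analysed here.

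Values are signals in arbitrary units as the authors deposited them. Array medians ran from 125.7 to 139.3. On the first principal component (39.2% of the variance) the siRNA 3488 arrays lay at -22.3 and -37.2, the siRNA 2600 arrays at 17.7 and -6.72, and the control arrays between 11.4 and 20.1. Actin signal at the 3′ end over that at the 5′ end, a sign of RNA quality, was 1.94 to 1.96 with siRNA 3488, 1.81 to 1.83 with siRNA 2600 and 1.74 to 1.79 in the control. Of 11 epithelial markers on the array 3 reached the level used for testing. Krt8 and Tjp1 were bright (mean percentile within the array 98.2 for each), while Cdh1 (6.30), Epcam (13.8) and Krt18 (16.5) lay near the bottom of the array. The fibroblast genes Col3a1 (99.9) and Postn (96.8) were bright, while Lum (8.51), Pdgfra (10.7), the leukocyte marker Ptprc (6.64) and the endothelial marker Pecam1 (11.6) were not. Of the 11 fibroblast genes on the array 6 reached the level used for testing. The median of the mean percentiles was 51.6 for the fibroblast list and 17.2 for the epithelial one. The labelled epithelial identity was thus borne out by a minority of its markers.

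The targeted gene was at the floor of the array. Adamts16, a protease whose closest relative is Adamts18, read 12.1 and 40.4 in the siRNA 3488 cultures on probe set 1385969_at. It read 21.4 and 2.42 in the siRNA 2600 cultures and 8.68, 7.18 and 18.9 in the control cultures. High and low arrays occurred within each siRNA group, and the groups overlapped. The group means were 26.2 ± 20.0 (SD, n = 2), 11.9 ± 13.4 (n = 2) and 11.6 ± 6.37 (n = 3), and the signal ranged 16.7-fold over the 7 arrays.

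The percentile of a probe set is the share of non-control probe sets on the same array with a lower signal. For Adamts16 it averaged 15.6 and ran from 2.46 to 29.1. The probe set lay under the level needed to be tested. That level admits the brighter 60% of all probe sets, by mean log2, and starts at a mean signal of 68.2. In the limma fit over all probe sets, its log2 difference was 0.25 for both siRNAs against the control (95% interval -1.78 to 2.29, adjusted p = 0.939). Permuting the 7 arrays between siRNA and control (exact test on log2 signals, two-sided) gave p = 0.829, where the smallest p that the 35 splits allow is 0.0571. Since the smallest p exceeds 0.05, this test could not have passed with any values. At a signal within the background level, the difference and its interval set no limit on the change in the transcript, and a knockdown could be neither seen nor bounded. Fewer cells with the transcript and less of it per cell cannot be told apart in such bulk RNA.

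Against a background level, 6 relatives stood clear. A list of 49 genes, mostly specific to other tissues (hormone, photoreceptor, muscle, sperm, blood, brain, liver, lung and pancreas genes), served as the background level, and 43 of them were on the array at mean percentiles of 1.46 to 50.8, with a median of 22.7. The brightest were Syp at 50.8 and Gfap at 50.2, both nervous system genes. The list also holds genes of kidney cells, of which Umod (18.7), Slc12a1 (13.5) and Aqp2 (13.1) were on the array and lay well below those. Adamts1, Adamtsl5, Adamts10, Adamtsl4, Adamts7 and Adamts4 lay above all 43, while Adamtsl1, Adamts9, Adamts6 and Adamts16 lay within their range. The second probe set of Adamtsl5 also lay within it, so counting each gene by its dimmest probe set leaves 5 above.

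**Figure D1:**
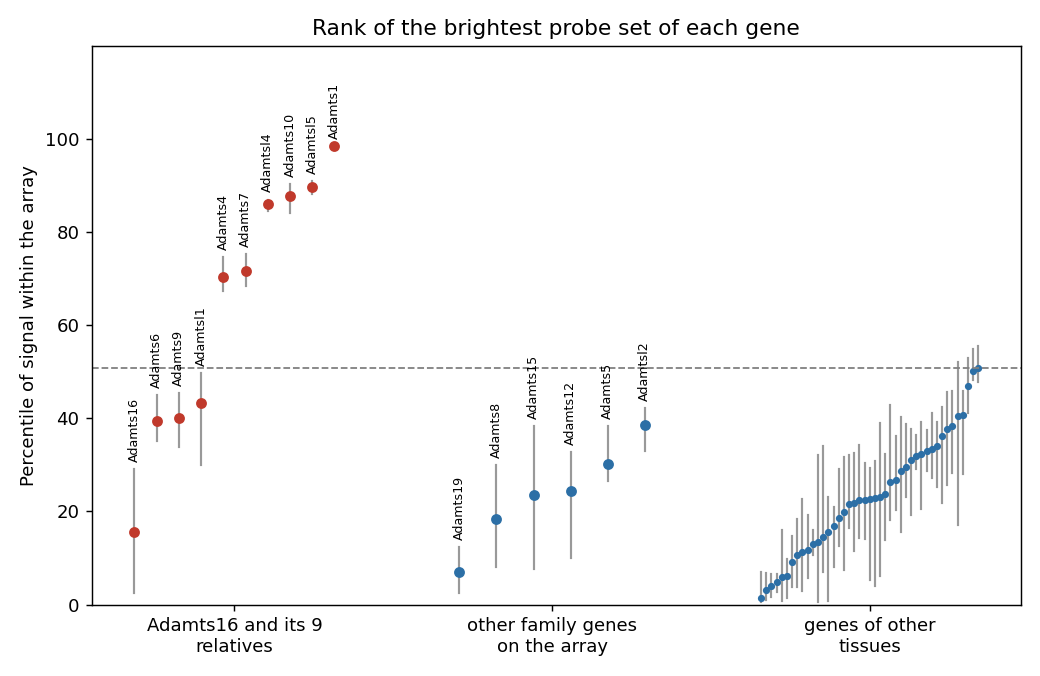
Mean percentile of the brightest probe set of each gene within the array (points) with the range over the 7 arrays (lines), for Adamts16 and its 9 relatives, the 6 other family genes on the array and 43 genes of other tissues. The dashed line marks the brightest gene of other tissues at 50.8; 6 relatives lie above it, and Adamts16 at 15.6 lies among the dimmer genes.

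Adamts1 led the order, which ranks each probe set within its array and does not compare amounts of RNA between genes, since probe sets differ in how well they hybridise. Adamts1 had a mean percentile of 98.4 and a range of 98.2 to 98.5 that overlapped no other. Adamtsl5 (89.6), Adamts10 (87.7) and Adamtsl4 (86.1) followed, each overlapping its neighbour in this order. Adamts7 (71.7) and Adamts4 (70.3) overlapped each other and neither gene beside them. Adamtsl1 (43.2), Adamts9 (40) and Adamts6 (39.5) formed the next overlapping run, and Adamts16 was last, with a range that ended below theirs.

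The 6 other family genes on the array were all under the level needed to be tested. Their mean percentiles were 38.6 for Adamtsl2, 30.1 for the aggrecanase Adamts5, 24.3 for Adamts12, 23.6 for Adamts15, 18.3 for Adamts8 and 7.11 for Adamts19, all within the range of the genes of other tissues. In the RefSeq table of assembly GRCr8 Adamts5 is the gene next to Adamts1, with 0 genes between them. The brightest family member on the array and one at background thus neighbour each other in the genome.

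**Figure D2:**
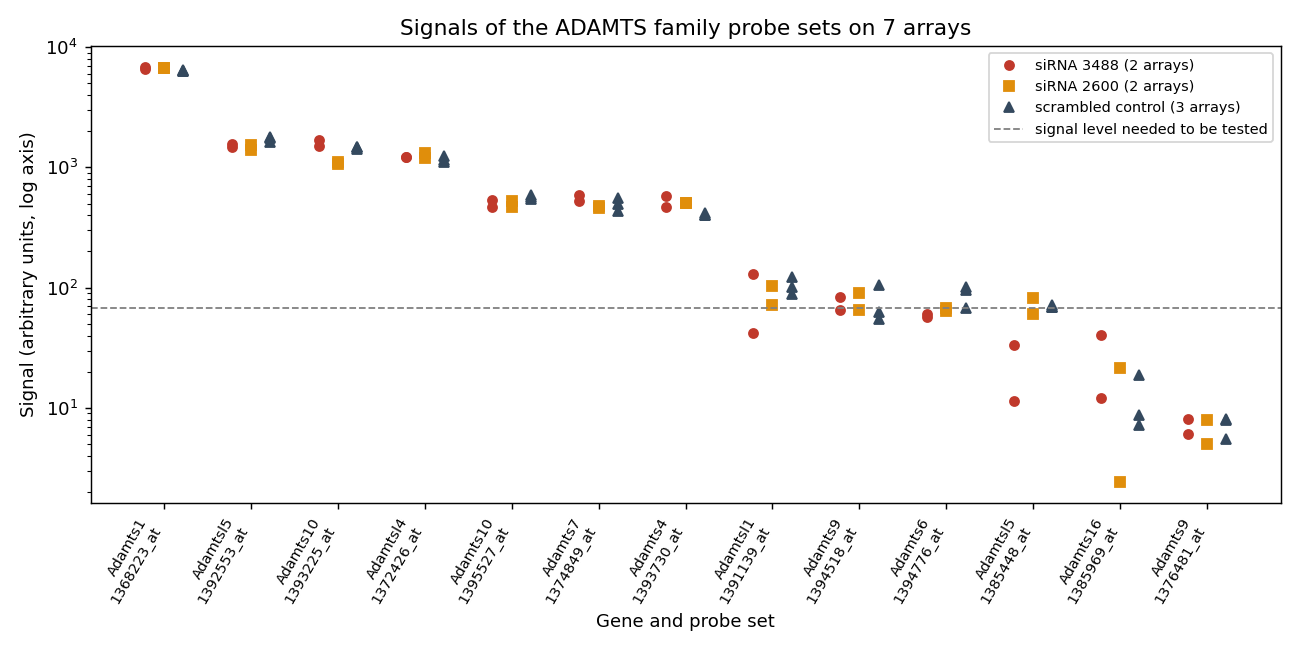
Signal (log axis, arbitrary units) of the 13 probe sets of the 10 genes on each array, ordered by mean level, with siRNA 3488 as circles, siRNA 2600 as squares and the scrambled control as triangles. The dashed line is the level needed to be tested, a mean signal of 68.2. Adamts1 runs from 6305 to 6870 and Adamts16 from 2.42 to 40.4.

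Of the 10 genes, 9 were tested. With both siRNAs against the scrambled control, 0 of the 9 passed at an adjusted p under 0.05 in limma (background: 0.145% of all tested probe sets), and 2 had an unadjusted p under 0.05 (background 17.8%). With siRNA 3488, 0 of 9 passed (background 15.6%), and 2 had an unadjusted p under 0.05 (background 31.9%). With siRNA 2600, 1 of 9 passed, as a fall (background 1.03%, falls alone 0.483%), and 3 had an unadjusted p under 0.05 (background 15.2%). Between siRNA 3488 and siRNA 2600, 1 of 9 passed, higher with siRNA 3488 (background 6.01%, higher alone 2.84%), which was also the 1 gene with an unadjusted p under 0.05 (background 23.7%). Both calls are Adamts10. These backgrounds depend on the fit and on single arrays: the 27 probe sets called with both siRNAs were 1378 for the mean of the siRNA effects in the fit of 3 groups and 1304 without siRNA 2600 replicate 1, and the 2911 with siRNA 3488 were 474 without its replicate 2. With siRNA 3488, 1283 of the 2911 were higher, against 1728 of 2304 under median centring.

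No relative of Adamts16 passed as a rise with either siRNA or with both. The median log2 difference of the 9 tested genes was 0.06 with both siRNAs (all tested probe sets: -0.05), 0.07 with siRNA 3488 (-0.06), -0.06 with siRNA 2600 (-0.02) and 0.01 between the siRNAs (-0.02). The comparisons with the control use the same 3 control arrays, so they are not independent of each other. The arrays of the groups did not overlap for 3 of 9 genes with both siRNAs (background 17.7%), 5 with siRNA 3488 (background 50.3%), 4 with siRNA 2600 (background 34.0%) and 3 between the siRNAs (background 49.6%).

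**Figure D3:**
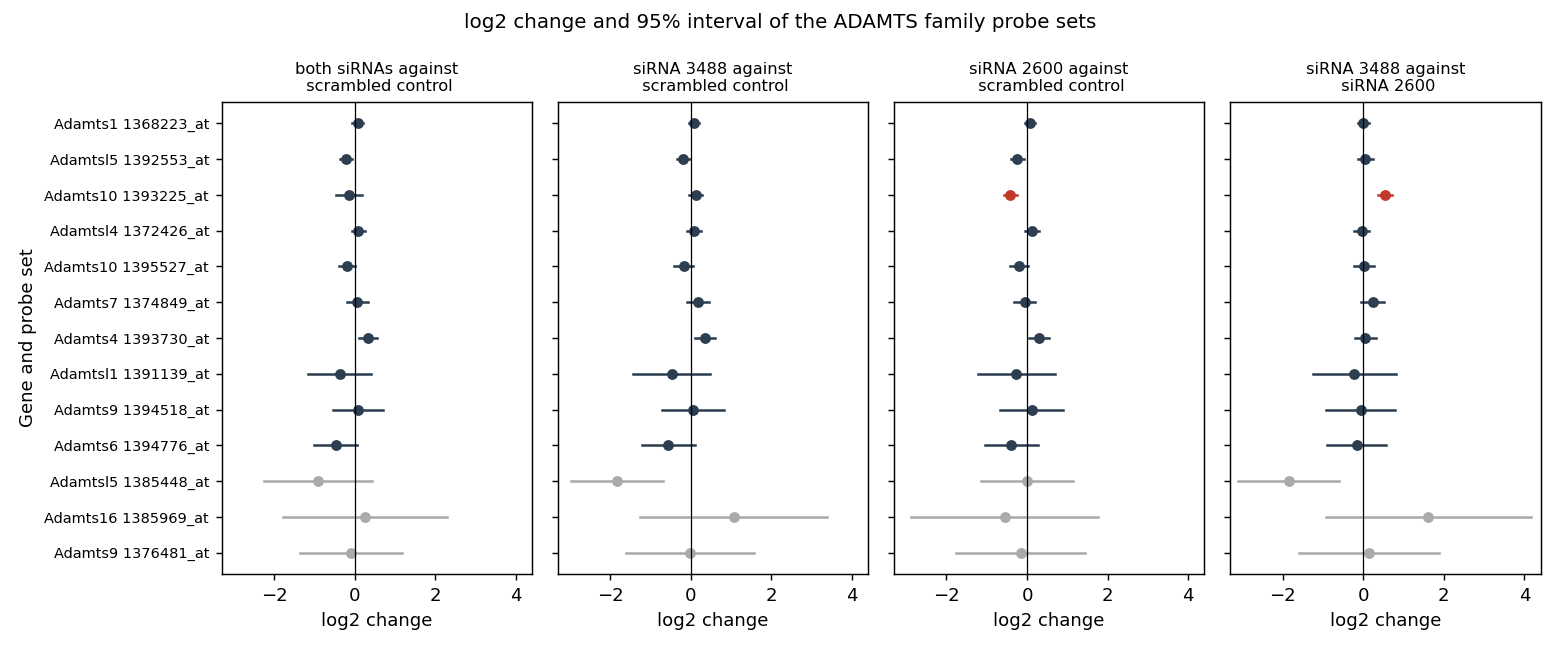
Log2 difference (points) with its 95% interval (lines) for the 13 probe sets in the 4 comparisons, from limma; red points passed at an adjusted p under 0.05 and grey ones lay under the level needed to be tested. The 2 red points are Adamts10 probe set 1393225_at, at -0.41 with siRNA 2600 and 0.54 between the siRNAs.

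Among the proteoglycan-cutting proteases, Adamts4, an aggrecanase, was higher on every siRNA array than on every control array without passing the test. Its signals were 575.8 and 472.9 with siRNA 3488 and 504.3 and 501.0 with siRNA 2600, against 419.1, 402.1 and 400.8 in the control (probe set 1393730_at). The control arrays lay close together, and the highest of them was below the lowest siRNA array. The log2 difference was 0.33 ± 0.10 (SE) for both siRNAs, a 1.26-fold ratio with a 95% interval of 1.08 to 1.46 (limma adjusted p = 0.146, unadjusted p = 0.00612).

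Each siRNA alone gave Adamts4 a similar value. It was 0.36 ± 0.11 with siRNA 3488 (limma adjusted p = 0.0524) and 0.30 ± 0.11 with siRNA 2600 (limma adjusted p = 0.229), and the siRNAs differed by 0.05 ± 0.12 (95% interval -0.21 to 0.32, limma adjusted p = 0.829). The siRNA 3488 value passed under 4 other settings: quantile normalization (0.46, limma adjusted p = 0.0270), median centring (0.45, 0.0269), cyclic loess (0.47, 0.0230) and a test of the upper 40% of probe sets (0.36, 0.0453). It ran from 0.22 (limma adjusted p = 0.268, without siRNA 3488 replicate 1) to 0.50 over arrays left out, and passed in none of them. With both siRNAs Adamts4 had the lowest unadjusted p of the 10 genes, and its log2 difference stayed between 0.27 and 0.37 whichever array was left out.

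Adamts1, which cuts versican and aggrecan and takes part in ovulation and kidney development, was the steadiest. Its signals were 6526 and 6870 with siRNA 3488 and 6684 and 6660 with siRNA 2600, against 6309, 6435 and 6305 in the control (probe set 1368223_at). Each siRNA array exceeded each control array, by a small margin. The log2 difference of 0.07 ± 0.06 for both siRNAs did not pass (limma adjusted p = 0.556), its 95% interval was a ratio of 0.956 to 1.16, and it took the opposite sign under quantile normalization (-0.07) and cyclic loess (-0.04). The 1000 tested probe sets around Adamts1 in mean signal, itself included, had a median of 0.158 in the same comparison, above its own value.

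Adamts9, which cuts versican and carries a long tail of thrombospondin repeats, lay within background on its brighter probe set. That probe set (1394518_at) read 83.3 and 65.6 with siRNA 3488 and 65.5 and 90.9 with siRNA 2600, against 62.7, 54.8 and 104.5 in the control. The groups overlapped fully, with a log2 difference of 0.09 ± 0.28 for both siRNAs (limma adjusted p = 0.898). The other, 1376481_at, had a mean percentile of 9.98 and is uninformative at this signal.

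Adamts7, a protease that cuts cartilage oligomeric matrix protein and is studied in vascular disease, was above the background level, and each siRNA group overlapped the control. Its signals were 524.4 and 587.4 with siRNA 3488 and 462.8 and 480.8 with siRNA 2600, against 433.4, 494.8 and 551.4 in the control (probe set 1374849_at). The range of the control arrays held 3 of the 4 siRNA arrays, while both siRNA 3488 arrays exceeded both siRNA 2600 arrays. Between the siRNAs the log2 difference was 0.23 ± 0.13 (95% interval -0.05 to 0.52, limma adjusted p = 0.305), and both siRNAs against the control gave 0.06 ± 0.12 (limma adjusted p = 0.818).

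Adamts10, a protease that binds fibrillin and is mutated in Weill-Marchesani syndrome, carried both calls. Probe set 1393225_at read 1498 and 1676 with siRNA 3488 and 1071 and 1116 with siRNA 2600, against 1466, 1473 and 1429 in the control. Both siRNA 2600 arrays lay far below the other 5, while the siRNA 3488 arrays lay just above the control. Group means were 1587 ± 126 (SD, n = 2), 1093 ± 31.8 (n = 2) and 1456 ± 23.8 (n = 3).

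The Adamts10 fall with siRNA 2600 was -0.41 ± 0.07 on the log2 scale, or 0.751 times the control with a 95% interval of 0.671 to 0.841 (limma adjusted p = 0.0319). With siRNA 3488 the difference was 0.12 ± 0.07 (limma adjusted p = 0.283). The difference between the siRNAs, tested itself, was 0.54 ± 0.08, a ratio of 1.45 with a 95% interval of 1.28 to 1.64 (limma adjusted p = 0.0106). With both siRNAs pooled the value was -0.15 ± 0.14 (limma adjusted p = 0.618), and -0.06 with median centring.

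The second Adamts10 probe set did not show this difference between the siRNAs. Probe set 1395527_at read 469.0 and 535.2 with siRNA 3488 and 521.2 and 466.8 with siRNA 2600, against 540.8, 566.9 and 591.5 in the control. All 4 siRNA arrays lay below the 3 control arrays, and the siRNA groups overlapped. Its difference between the siRNAs was 0.02 ± 0.11 (95% interval -0.23 to 0.28, limma adjusted p = 0.931), an interval that ends below the 0.54 of the first, and with siRNA 2600 it was -0.20 ± 0.10 (limma adjusted p = 0.409), or -0.11 with median centring. The difference between the probe sets was not tested. Which exons or transcripts the probe sets cover was not analysed here.

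The Adamts10 calls also depended on settings. The siRNA 2600 call did not pass with median centring (-0.33, limma adjusted p = 0.113), with no filter on low signals (0.0532), without the intensity trend (0.150), or when either siRNA 2600 array (0.0730 and 0.0731) or any 1 of the 3 control arrays (0.112 to 0.141) was left out. The call between the siRNAs did not pass without the intensity trend (0.0777), in a fit of the compared arrays alone (0.0850), without siRNA 3488 replicate 2 (0.0677) or without siRNA 2600 replicate 1 (0.0529). The direction and the size, between 0.46 and 0.62 for the difference between the siRNAs with 1 array left out, were kept in each.

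Adamts6, the closest relative of Adamts10, lay within background and just above the level needed to be tested. It read 57.5 and 60.5 with siRNA 3488 and 67.7 and 64.5 with siRNA 2600, against 67.5, 101.6 and 95.2 in the control (probe set 1394776_at). The siRNA 3488 arrays were lowest, and the lowest control array fell among the siRNA 2600 arrays. The log2 difference of -0.47 ± 0.24 for both siRNAs did not pass (limma adjusted p = 0.324).

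**Figure D4:**
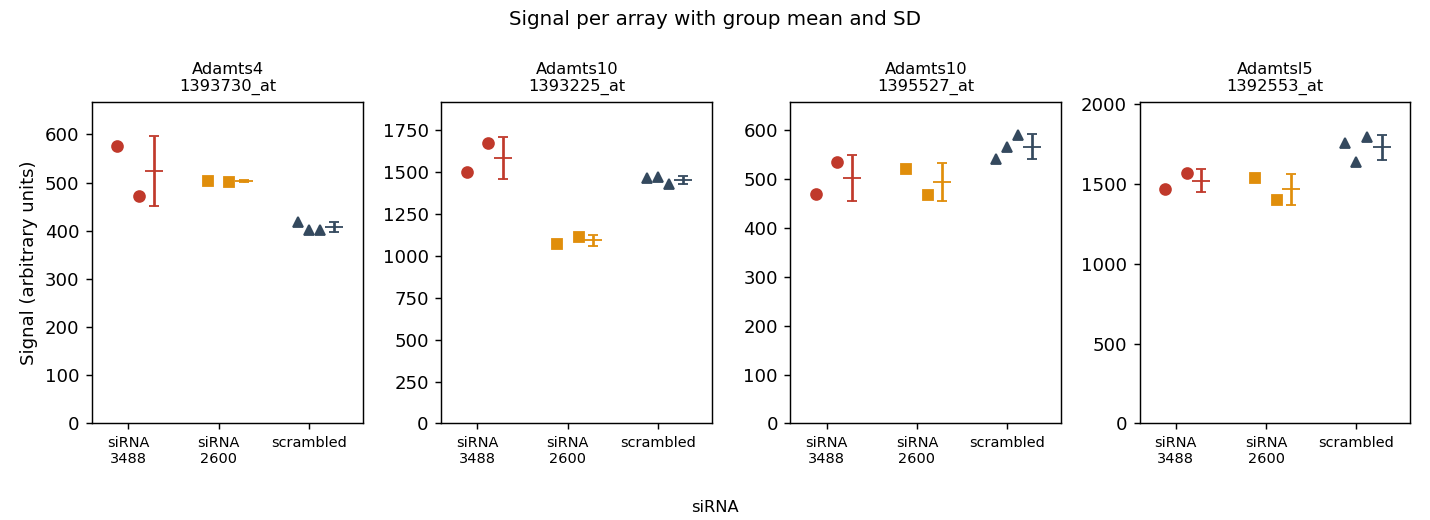
Signal per array (points, axis from 0, arbitrary units) with the group mean and SD (bars) for Adamts4, both probe sets of Adamts10 and the brighter probe set of Adamtsl5. Adamts4 is higher on all 4 siRNA arrays than on the control arrays, Adamts10 1393225_at is low on the siRNA 2600 arrays alone (1071 and 1116), and Adamtsl5 is lower on all 4 siRNA arrays.

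Among the ADAMTS-like proteins, Adamtsl5, a heparin- and fibrillin-binding member, was lower on every siRNA array without passing the test. Probe set 1392553_at read 1469 and 1571 with siRNA 3488 and 1535 and 1399 with siRNA 2600, against 1758, 1640 and 1791 in the control. The lowest control array was above the highest siRNA array. The log2 difference was -0.21 ± 0.07 for both siRNAs, or 0.863 times the control with a 95% interval of 0.776 to 0.960 (limma adjusted p = 0.172), -0.19 ± 0.08 with siRNA 3488 (limma adjusted p = 0.120) and -0.24 ± 0.08 with siRNA 2600 (limma adjusted p = 0.170). Median centring reduced these to -0.12, -0.09 and -0.15 in that order.

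The dimmer Adamtsl5 probe set, 1385448_at, differed from this pattern. It read 33.1 and 11.5 with siRNA 3488 and 82.1 and 60.3 with siRNA 2600, against 69.3, 68.9 and 72.2 in the control, so only the siRNA 3488 arrays were low. It lies under the level needed to be tested; in the fit over all probe sets the siRNA 3488 difference was -1.84 ± 0.51 (limma adjusted p = 0.0628) and the siRNA 2600 difference 0.01 ± 0.51 (limma adjusted p = 0.999).

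Adamtsl4, which binds fibrillin and is mutated in inherited lens dislocation, was expressed and showed overlapping groups. Its signals were 1227 and 1223 with siRNA 3488 and 1318 and 1204 with siRNA 2600, against 1104, 1155 and 1239 in the control (probe set 1372426_at). The log2 difference was 0.09 ± 0.07 for both siRNAs (limma adjusted p = 0.513).

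Adamtsl1, also called punctin, was within background and the most variable of the tested genes, with an SD of 0.55 in log2 signal over the 7 arrays. It read 130.1 and 42.1 with siRNA 3488 and 72.2 and 102.5 with siRNA 2600, against 101.6, 122.0 and 88.5 in the control (probe set 1391139_at). The highest and the lowest array were both of siRNA 3488, and the difference of that siRNA from the control, -0.48 ± 0.43 (limma adjusted p = 0.476), rested on them. It was -1.29 (limma adjusted p = 0.0470) without replicate 1 and 0.34 (limma adjusted p = 0.594) without replicate 2.

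The genes whose profile over the 7 arrays lay nearest to a member's, by the root mean square difference of centred log2 signals among 9943 tested genes, are given as a description. For Adamtsl1 they were Rab43 (0.166), Casz1 (0.166) and Pld2 (0.180). For Adamts1, whose own SD was 0.05, they were Tmem41b (0.0110), Rars1 (0.0136) and Hmgn3 (0.0187).

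The genes around the proteases were taken from lists of candidate substrates, partners and regulators, and with siRNA 3488 several of them rose. Each is given by its brightest probe set alone. Among those called, Cd44, Col1a1, Lox, Timp2 and Dpy19l1 have 2 probe sets and B3glct has 3. Their dimmer probe sets are not given here. Of the proteoglycan and adhesion genes, listed as candidate substrates, 6 of 13 on the array were tested. With siRNA 3488, 4 rose and 0 fell (median 0.39, all tested probe sets -0.06, background 15.6% called and 6.89% higher). They were the matrix glycoprotein fibronectin (Fn1, 0.49 ± 0.06, limma adjusted p = 0.00223), the proteoglycan biglycan (Bgn, 0.46 ± 0.06, 0.00282), the hyaluronan receptor Cd44 (0.80 ± 0.23, 0.0386) and syndecan 4 (Sdc4, 0.32 ± 0.07, 0.0151). Apart from Cd44 (mean percentile 51.7) these were bright, at 96 for Fn1, 98.3 for Bgn and 99.4 for Sdc4. The brightest 10% of tested probe sets had a median of 0.148 with siRNA 3488, above the -0.06 of all. The 1000 tested probe sets around Adamts1 in mean signal (mean percentile 98.4) had a median of 0.248 in that comparison. With siRNA 2600, 0 of the 6 passed (background 1.03%), and Fn1 was at 0.10 (limma adjusted p = 0.455). Without siRNA 3488 replicate 2, scrambled replicate 1 or scrambled replicate 2, the count of 4 was 2 each time. Between the siRNAs Fn1 (0.39 ± 0.07, limma adjusted p = 0.0144) and Sdc4 (0.33 ± 0.08, 0.0372) were higher with siRNA 3488 (background 6.01%).

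The classical substrates of Adamts1 and Adamts4 were not among them. Versican (Vcan) had a mean percentile of 7.94 on the brightest of its 5 probe sets, and aggrecan (Acan) of 36.4 on the brighter of its 2. Both were under the level needed to be tested and within the range of genes of other tissues. Cartilage oligomeric matrix protein (Comp), a substrate of Adamts7, was tested at a percentile of 62.9, with -0.18 ± 0.14 with siRNA 3488 (limma adjusted p = 0.403).

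Procollagens and microfibril partners had 8 of 11 genes tested and 4 that rose with siRNA 3488, 0 that fell (median 0.28, all tested probe sets -0.06; background 15.6% called, 6.89% higher). These were Col1a1 (0.44 ± 0.08, limma adjusted p = 0.00795), Col3a1 (0.44 ± 0.08, 0.00682), the collagen cross-linking enzyme Lox (0.41 ± 0.07, 0.00569) and Ltbp1, which tethers latent TGF-beta to microfibrils (0.26 ± 0.07, 0.0333). All 4 were bright (mean percentiles 94.7, 99.9, 99.7 and 92.5 in that order). The brightest 10% of tested probe sets had a median of 0.148 with siRNA 3488, and the 1000 around Adamts1 in mean signal (mean percentile 98.4) had 0.248. Col3a1 (0.42 ± 0.08, limma adjusted p = 0.0229) and Lox (0.38 ± 0.07, 0.0204) also differed between the siRNAs (background 6.01%). Fibrillin 1 (Fbn1, percentile 27.4) and fibrillin 2 (Fbn2, 24.5), the partners of Adamts10 and Adamtsl4, were under the level needed to be tested. With siRNA 2600, 0 of the 8 passed (background 1.03%). Of the 4 rises with siRNA 3488, Col3a1 and Lox alone passed without siRNA 3488 replicate 2, Col1a1 alone under cyclic loess or quantile normalization, and 0 without the intensity trend.

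Of the inhibitors, clearance receptor and convertases, 8 of 10 were tested and 3 rose with siRNA 3488, 0 fell (median 0.11, all tested probe sets -0.06; background 15.6% called, 6.89% higher). They were the inhibitors Timp1 (0.56 ± 0.09, limma adjusted p = 0.00602) and Timp2 (0.38 ± 0.08, 0.0140) and the convertase Pcsk6 (0.28 ± 0.07, 0.0301). Timp1 and Timp2 were also bright (mean percentiles 99.5 and 99.7), and Pcsk6 was at 86.1. Timp3, the inhibitor best known for ADAMTS proteases, was at 0.03 ± 0.12 (limma adjusted p = 0.877), the receptor Lrp1 at -0.02 ± 0.07 (0.869) and Furin at 0.02 ± 0.09 (0.905). The count of 3 was 1 without siRNA 3488 replicate 2 or scrambled replicate 1, and 0 without the intensity trend. With siRNA 2600, 0 of the 8 passed (background 1.03%). Between the siRNAs Pcsk6 was higher with siRNA 3488 (0.34 ± 0.08, limma adjusted p = 0.0402, background 6.01%).

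All 7 genes on the array that were listed for the glycosylation of thrombospondin repeats, some of them indirectly, were tested. With siRNA 3488, Dpm2, a subunit of dolichol-phosphate mannose synthase, rose (0.31 ± 0.09, limma adjusted p = 0.0422), and B3glct, which extends the fucose on the repeats, fell (-0.45 ± 0.11, 0.0208), 2 of 7 against a background of 15.6%. With siRNA 2600 the mannosyltransferase Dpy19l1 rose (0.39, limma adjusted p = 0.0356), 1 of 7 against a background of 1.03%. Dpm2 and B3glct did not pass without either siRNA 3488 array or any 1 control array, nor Dpy19l1 without either siRNA 2600 array or without scrambled replicate 2 or 3. Dpy19l1 also did not pass under quantile normalization (limma adjusted p = 0.0699), cyclic loess (0.0668), no filter (0.0755) or no intensity trend (0.180). B3glct did not pass under quantile normalization (limma adjusted p = 0.0608), median centring (0.0926), cyclic loess (0.0677) or no intensity trend (0.0658). Dpm2 did not pass with no filter (limma adjusted p = 0.0583) or no intensity trend (0.077). Pofut2, which adds that fucose, was at 0.06 ± 0.09 with siRNA 3488 (limma adjusted p = 0.663). Of the membrane-bound ADAM proteases 7 of 9 were tested and 0 passed in any of the 4 comparisons. Backgrounds were 0.145% with both siRNAs, 15.6% with siRNA 3488, 1.03% with siRNA 2600 and 6.01% between the siRNAs. With both siRNAs pooled 0 genes of these 5 lists passed, at that background of 0.145%.

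Several of these rises moved with the scaling of the arrays and with other measures. The brightest 10% of tested probe sets had a median of 0.148 with siRNA 3488. Around Adamts1 in mean signal (mean percentile 98.4), 1000 tested probe sets had a median of 0.248 with that siRNA. Under quantile normalization Sdc4 (-0.07), Col3a1 (-0.03), Lox (-0.04) and Timp2 (-0.05) took the opposite sign with siRNA 3488, while Fn1 and Bgn kept their siRNA 3488 calls under every setting tried. The 5 calls between the siRNAs (Fn1, Sdc4, Col3a1, Lox and Pcsk6) did not pass without siRNA 3488 replicate 2 or without siRNA 2600 replicate 1. Nor did these 5 calls pass without the intensity trend (limma adjusted p = 0.0961 to 0.150) or in a fit of the compared arrays alone (0.104 to 0.143). The summed signal of the fibroblast list, which shares Col1a1, Col1a2 and Col3a1 and of which 11 of 11 genes are on the array, was 55110 to 60250 with siRNA 3488, 43540 to 47930 with siRNA 2600 and 41890 to 45000 in the control. The epithelial sum (11 of 12 genes) was 12890 to 13540, 12000 to 12360 and 12110 to 13030 in that order. The sum over endothelial and immune markers (9 of 11 genes) was 733.7 to 764.5, 536.6 to 576.4 and 542.1 to 614.1, with Cd68 and Tek its only tested genes. Cd68, a macrophage marker, was itself higher with siRNA 3488 (0.67 ± 0.14, limma adjusted p = 0.0141), while Tek was at 0.04 ± 0.17 (0.891). In the fibroblast list Mfap5 was also higher with siRNA 3488 (0.48 ± 0.08, limma adjusted p = 0.00685). The part of these measures and of the actin ratio in the siRNA 3488 results was not tested.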

How the data were processed

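RNA of 7 cultures was hybridised to 1 Affymetrix array each, from 5 ug of total RNA. The deposited values are intensity values, a linear signal for each probe set. Per the submitters' processing notes they come from GCOS 1.4, whose background, summary and scaling settings these sources do not give. With extremes trimmed, array means were 500.1 to 500.2, so the values were already scaled. Of 31099 probe sets 57 controls were left out; of the others 20826 have 1 gene symbol, 436 several and 9780 none, and genes were named from the first kind. All 10 genes matched the RefSeq table by Entrez identifier.

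Signals were floored at 1 before taking log2. The 18625 probe sets that make up the brighter 60% were tested in limma 3.58.1 (R 4.3.3) with lmFit and a trended eBayes. Benjamini-Hochberg adjustment ran over all of them, and calls are at an adjusted p under 0.05. Pooling both siRNAs was a fit of 2 groups; the other comparisons came from a fit of 3 groups sharing 1 spread. Genes under the level take values from the same fit over all probe sets. The fits were tested on simulated data.

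Genes, lists and tests were chosen with earlier results of these data known. Every family member is named with all its probe sets, its brightest being the main one. A gene of any other list is given by its brightest probe set alone. Of other lists, genes called in any comparison and the 3 brightest could be named; Vcan, Acan, Comp, Timp3, Furin, Lrp1, Fbn1, Fbn2 and Pofut2 were added for their roles after their values were seen. Alternatives were other scalings, other filters, an offset of 32, no trend, a replicate block, other sets of arrays and leaving out each array. Other ways to set the background level of genes of other tissues were added after seeing the data. Whether replicate numbers pair the arrays could not be decided. Same-numbered arrays of different groups had deviations correlated at -0.0483 to 0.163, over 0.1 in 3 of 6 pairs. Differently numbered arrays gave -0.191 to 0.191. Within each siRNA group the deviations from the group mean mirror each other, so these correlations are not independent.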

Additional observations from a re-analysis of the deposited data

Results flagged for a closer look

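Adamts10 was flagged for 1 of its 2 probe sets. There the difference from the control was not the same with the 2 siRNAs, by a test of the difference itself. Probe set 1393225_at was 0.54 higher on the log2 scale with siRNA 3488 than with siRNA 2600 (limma adjusted p = 0.0106, 2 arrays against 2), and both siRNA 3488 arrays exceeded both siRNA 2600 arrays. The second probe set of the gene gave 0.02 (limma adjusted p = 0.931). The cause was not tested.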

How the results depend on the processing

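For the main probe sets of the 10 genes, 160 alternative values were computed in each of 4 comparisons; the number that kept direction and side of the threshold was 150 with both siRNAs, 149 with siRNA 3488, 144 with siRNA 2600 and 145 between the siRNAs. Other filters, no intensity trend, the compared groups alone and leaving out an array of a group not compared cannot change a log2 difference. Direction was fixed in these settings, so the counts overstate how far it was tested. The cause of each change below was not tested.

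The count of family members called with siRNA 3488 went from 0 to 1 (Adamts4) with quantile normalization, median centring, cyclic loess and the upper 40%, and ran from 0 to 1 (Adamtsl1, without siRNA 3488 replicate 1) over arrays left out. With siRNA 2600 it went from 1 to 0 with median centring, no filter, no intensity trend and the replicate block, and ran from 0 to 1 over arrays left out. Between the siRNAs it went from 1 to 0 with no intensity trend and with the compared groups alone, and ran from 0 to 1 over arrays left out.

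Adamts1 reversed under quantile normalization (both siRNAs -0.0723, siRNA 3488 -0.138, siRNA 2600 -0.00616, between the siRNAs -0.132) and cyclic loess (-0.0382 with both, -0.101 with siRNA 3488, -0.125 between). Adamts7 with siRNA 2600 reversed under median centring (0.0287) and the block (0.0267), and Adamtsl4 between the siRNAs under cyclic loess (0.000732). Quantile normalization turned Sdc4 (-0.0669), Col3a1 (-0.0258), Lox (-0.0398) and Timp2 (-0.0543) with siRNA 3488 and Lox between the siRNAs (-0.0095).

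Over arrays left out, values that changed sign ran as follows. Adamts16 ran from -0.31 to 1.05 with both siRNAs and from -2.13 to 1.02 with siRNA 2600. Adamts9 ran from -0.100 to 0.366 with both, -0.131 to 0.335 with siRNA 3488, -0.118 to 0.397 with siRNA 2600 and -0.299 to 0.175 between. Adamts7 ran from -0.0298 to 0.144 with both and -0.147 to 0.0267 with siRNA 2600. Adamtsl1 ran from -1.29 to 0.34 with siRNA 3488 and -1.03 to 0.60 between. Between the siRNAs, Adamts4 ran from -0.0880 to 0.196, Adamts1 from -0.0319 to 0.0422, Adamtsl4 from -0.105 to 0.0257, Adamtsl5 from -0.0154 to 0.119 and Adamts10 1395527_at from -0.0729 to 0.118.

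With the replicate number as a block, Adamts10 with siRNA 2600 was at -0.43 (limma adjusted p = 0.0660), and the block moved the count of all called probe sets from 27 to 0 with both siRNAs and from 192 to 67 with siRNA 2600. Only the control has a replicate 3, so the block takes that array out of the comparisons with the control. The Adamts10 value of -0.43 was the same as without scrambled replicate 3. With the block Dpm2 (limma adjusted p = 0.0874) and Pcsk6 (0.0777) with siRNA 3488 and Dpy19l1 (0.0620) with siRNA 2600 did not pass. Over arrays left out, the count of all called probe sets ran from 0 to 1304 with both siRNAs, 474 to 3611 with siRNA 3488, 25 to 231 with siRNA 2600 and 95 to 1562 between the siRNAs. Of 19 calls among substrates, partners and regulators, quantile normalization kept 9, no intensity trend 2 and leaving out siRNA 3488 replicate 2 kept 6. Low signal limits Adamts16 and the other genes within background.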
